A study of Mus musculus with 6 samples.

Results

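The BCL2 family genes described here are 10 genes that set the threshold of mitochondrial cell death: the survival genes Bcl2, Bcl2l1 and Mcl1, the pore-forming effectors Bax and Bak1, and the BH3-only genes Bcl2l11, Bbc3, Bid, Bad and Pmaip1. Members were all probe sets of the expression array whose platform symbol is 1 of these names, which gave 29 probe sets of 9 genes among 45037 tested (9 of 10 genes). Bax was given to no probe set by the annotation used, and its expression was not analysed here. They were measured in hematopoietic stem cells (HSCs) of adult mice, with 1 array per sample, 3 of them of mice homozygous for a knock-in at PU.1 (PU.1 ki/ki) and 3 of wild-type mice. All cells were sorted by the gate lin-sca1+ckit+CD150+CD48-, which enriches long-term HSCs. The adult age follows the labels' protocols, whereas the free-text sample descriptions name embryos and were set aside. PU.1 is the ETS transcription factor encoded by Spi1, and the series asks how its control of its own gene bears on the division of these cells. The labels used here do not give the altered base pairs of the knock-in allele, the strain or sex of the mice, or whether a sample pools several mice.

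In the mitochondrial pathway of apoptosis the survival proteins bind and restrain the effectors, which otherwise oligomerise in the outer mitochondrial membrane and release cytochrome c. BH3-only proteins are made or activated on stress or loss of cytokine signals. They occupy the survival proteins, and some also engage the effectors directly. In the mouse Mcl1 is required for the survival of HSCs, and forced Bcl2 expression enlarges the HSC pool.

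No BCL2 family probe set differed past the threshold between PU.1 ki/ki HSCs and the wild type. Pmaip1 (Noxa) read the table's minimum on all 6 arrays, which leaves 28 probe sets of 8 genes with a measured level. In PU.1 ki/ki 16 of these were higher and 12 lower, with a median log2 difference of 0.04, against 0.002 over all probe sets. At an adjusted p under 0.05 (limma, Benjamini-Hochberg over all probe sets) 0 members passed, against 0% of all probe sets, and the lowest adjusted p of a member was 0.463. An unadjusted p under 0.05 was found for 2 members, 7.14%, against 8.28% of all probe sets. The groups did not overlap in 3 members, 10.7%, against 12.1% of all probe sets. Both shares lie near the background.

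The promoter of Bak1 is shown because it holds an extended ETS motif bound by PU.1 just before the only Bak1 start in the table used. The motif searched was GAGGAAGT, on both strands (reverse ACTTCCTC), in the 250 bases before each start. It was found in 2 of 15 windows of 9 member genes, against 2.44% of 32851 windows of all genes. The other match was at a second, downstream start of Bad. The member windows include Bax. Pmaip1 was left out of the member windows, whereas no gene was left out of the windows of all genes. Some windows of the same gene overlap, as for Bbc3, and the shares were not compared by a test. The sequence is that of RefSeq (GRCm38.p6, minus strand, chr17:27028628-27028877), written 5′ to 3′ and ending just before the start, with the match in capitals.
Bak1: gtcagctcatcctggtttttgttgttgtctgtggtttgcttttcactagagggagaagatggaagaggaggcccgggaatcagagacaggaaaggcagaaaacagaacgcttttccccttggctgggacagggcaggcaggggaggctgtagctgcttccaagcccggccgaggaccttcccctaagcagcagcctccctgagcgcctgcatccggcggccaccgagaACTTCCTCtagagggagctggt
The match lies on the opposite strand, 14 bases from the end of the window. A match is a description of these letters and not a measured binding site.

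Array intensities are given below per array, in the order of replicates 1, 2 and 3. Differences are log2(intensity + 1) of PU.1 ki/ki minus wild type with the standard error of limma's moderated fit, and levels of different probe sets are not comparable with each other. The sign of a log2 difference can depart from that of the mean intensities where 1 array is far from the others. The suffix of a probe set follows the maker's naming: _a_at matches several transcripts of 1 gene, _s_at may match several genes, and _x_at may cross-hybridise. In RNA of a sorted population, a change in the share of cells that express a gene and a change in RNA per cell cannot be told apart.

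The arrays themselves were unequal. Wild-type replicates 2 and 3 had lost 11.5 and 11.3% of bright probe sets, which lay 4-fold or more under the median of the remaining 5 arrays, a share that was 0.119 to 0.219% on PU.1 ki/ki arrays and 1.12% on wild-type replicate 1 (bright means a median of at least 512). Of the 8 or 9 bright members, 0 were lost in this way on any array. At any brightness 1 member each was lost on wild-type replicate 2 (Bid 1417045_at), on wild-type replicate 3 (Bcl2 1443837_x_at) and on PU.1 ki/ki replicate 3 (Bcl2l1 1426191_a_at). Spi1 read 170, 212 and 161 in PU.1 ki/ki, against 158, 195 and 199 in wild type (-0.03 ± 0.18 SE, n = 3 each, limma adjusted p = 0.992), so this transcript gives no check of the genotype labels. Of 8 measured stem cell markers 6 read at least 100 on all arrays, among them Kit, Hlf, Mecom and Gata2. Slamf1, which encodes the gate antigen CD150, read 696, 1525 and 170 in PU.1 ki/ki, against 440, 54 and 42 in wild type. Cd48, the antigen gated out, read 230, 90 and 290 in PU.1 ki/ki, against 704, 193 and 75 in wild type. Summed over the 4 T cell markers, arrays read 133 to 244 in PU.1 ki/ki, against 204 to 278 in wild type, and over the 4 B cell markers 283 to 325 in PU.1 ki/ki, against 176 to 753 in wild type. Of the T cell markers Cd3e read 32 to 58 in PU.1 ki/ki, against 76 to 150 in wild type, without overlap, and Cd4 read 53 to 144 in PU.1 ki/ki, against 18 to 58 in wild type, with overlap. Most of the B cell sum came from Cd79b. The 6 granulocyte and macrophage markers summed to 4612 to 6251 in PU.1 ki/ki, against 5036 to 10499 in wild type, mostly from Mpo and Elane, with Itgam and Adgre1 under 100 on all arrays. Of that list C1qb read 567, 119 and 73 in PU.1 ki/ki and the minimum of 10 on all 3 wild-type arrays. Klf1, an erythroid factor, read 118, 123 and 159 in PU.1 ki/ki, against 42, 21 and 11 in wild type, and Epor, the other erythroid marker measured, read 80, 73 and 43 in PU.1 ki/ki, against 100, 16 and 166 in wild type. The 3 megakaryocyte markers summed to 803 to 2232 in PU.1 ki/ki, against 480 to 1288 in wild type, with Pf4 at 544, 1562 and 1809 in PU.1 ki/ki, against 193, 671 and 960 in wild type. The part of these markers and of the lost signal in the values below was not tested.

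**Figure D1:**
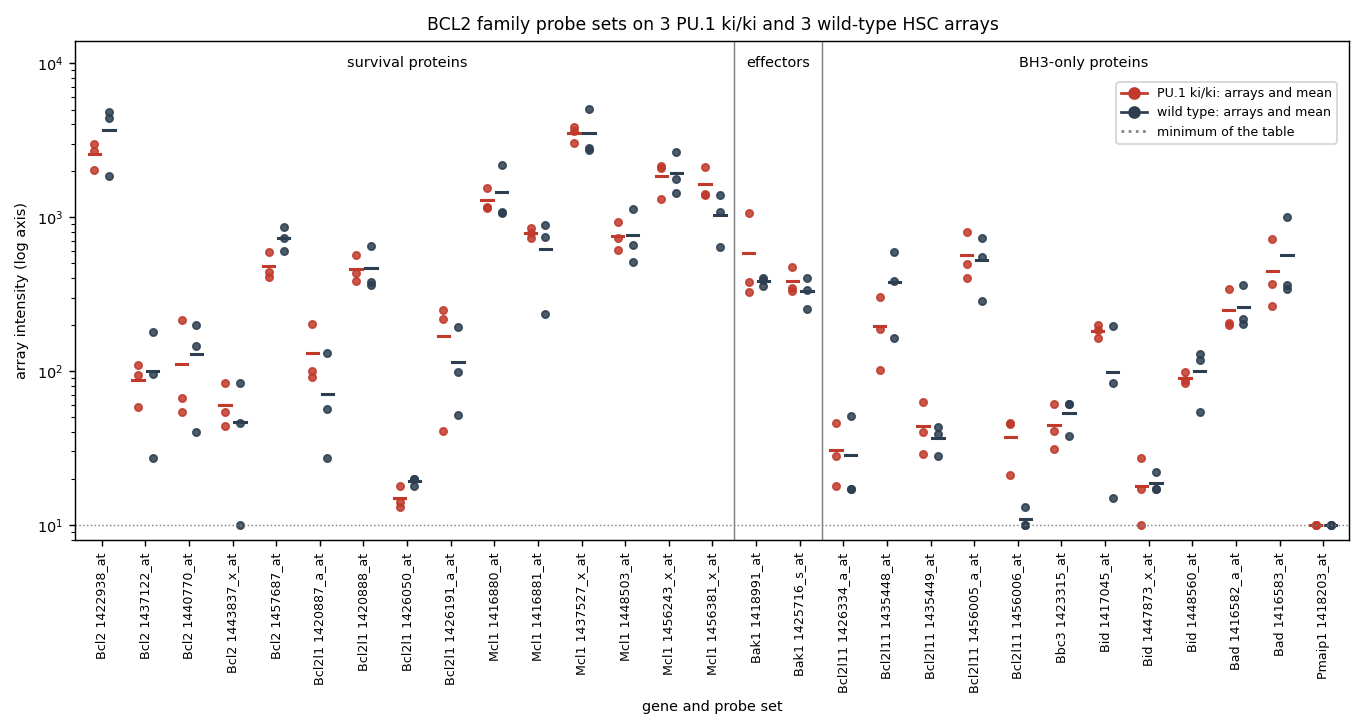
Array intensity (log axis) of the 29 BCL2 family probe sets, grouped as survival proteins, effectors and BH3-only proteins. Points are single arrays, PU.1 ki/ki in red left of wild type in dark blue, bars are group means of 3 arrays, and the dotted line is the table's minimum of 10. The points of the 2 genotypes overlap in all but 3 probe sets that lie off the minimum, and Pmaip1 lies on the minimum throughout.

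Among the survival genes the 15 probe sets were split in PU.1 ki/ki, with 9 higher and 6 lower, a median difference of 0.04 and a range of -0.61 to 1.05. Mcl1, a short-lived survival protein, had the most probe sets, 6. Mcl1 1437527_x_at read 3854, 3016 and 3639 in PU.1 ki/ki, against 2710, 5009 and 2827 in wild type. The PU.1 ki/ki arrays all fell between the wild-type extremes, and the difference was 0.05 ± 0.29 (SE, n = 3 each, 95% interval -0.69 to 0.79, limma adjusted p = 0.989). Mcl1 1416880_at read 1549, 1161 and 1146 in PU.1 ki/ki, against 1084, 2192 and 1066 in wild type, a difference of -0.10 ± 0.34 (adjusted p = 0.956). Mcl1 1448503_at read 728, 609 and 931 in PU.1 ki/ki, against 509, 1134 and 657 in wild type, a difference of 0.04 ± 0.36. Mcl1 1456243_x_at read 2161, 1317 and 2082 in PU.1 ki/ki, against 1429, 2637 and 1779 in wild type, a difference of -0.06 ± 0.32. In these 4 probe sets wild-type replicate 2 was the highest array and the group means nearly coincided, and each 95% interval lay within 2-fold either way.

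The remaining Mcl1 probe sets departed from that pattern. Mcl1 1416881_at read 736, 794 and 846 in PU.1 ki/ki, against 236, 886 and 740 in wild type, so that its difference of 0.56 ± 0.54 came with 1 low wild-type array and was -0.03 without wild-type replicate 1. Mcl1 1456381_x_at read 1388, 1403 and 2126 in PU.1 ki/ki, against 1382, 1085 and 642 in wild type. It was the only Mcl1 probe set whose groups did not overlap, by a margin of 1388 to 1382, and its difference of 0.70 ± 0.36 had an adjusted p of 0.656 (limma). Against wild-type replicate 1 alone it was 0.22. Wild-type replicate 2 was the highest array in 5 of the 6 Mcl1 probe sets and not in this one. The member with the highest mean log2 value over the 6 arrays was Mcl1 1437527_x_at. Its profile was set against probe sets of other genes with 1 symbol and a mean log2 value at or above the median of all. Among these, Septin6, Iqgap1 and Dpysl2 were most like it. Their root mean square distances were 0.056, 0.067 and 0.078 between centred log2 profiles over 6 arrays. These distances were not tested.

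Bcl2, the founding member of the family and a survival protein of lymphoid and stem cells, was read by 5 probe sets that did not move together. Bcl2 1422938_at read 2708, 2968 and 2019 in PU.1 ki/ki, against 4817, 4405 and 1856 in wild type. A pair of wild-type arrays stood above all PU.1 ki/ki arrays and the third below them, and the difference was -0.43 ± 0.43 (SE, 95% interval -1.52 to 0.67, limma adjusted p = 0.788). With any 1 array left out it lay at -0.86 to -0.18, and it was -0.93 against wild-type replicate 1 alone. Bcl2 1457687_at read 411, 590 and 442 in PU.1 ki/ki, against 729, 599 and 867 in wild type. Its groups did not overlap, by a margin of 590 to 599. The difference was -0.61 ± 0.22, with an unadjusted p of 0.041 and an adjusted p of 0.594 (limma), and it was -0.62 against wild-type replicate 1 alone. Both probe sets kept a negative difference when each array was left out in turn.

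The other 3 Bcl2 probe sets scattered widely, 1440770_at in both genotypes, and 1437122_at and 1443837_x_at mainly in wild type. Bcl2 1440770_at read 67, 213 and 54 in PU.1 ki/ki, against 199, 40 and 145 in wild type (-0.19 ± 0.83). Bcl2 1437122_at read 109, 58 and 94 in PU.1 ki/ki, against 178, 96 and 27 in wild type (0.11 ± 0.75). Bcl2 1443837_x_at read 44, 83 and 54 in PU.1 ki/ki, against 83, 46 and 10 in wild type (0.75 ± 0.82), with wild-type replicate 3 at the table's minimum. All 3 overlapped between genotypes and reversed sign when 1 array was left out, so these probe sets give no direction for Bcl2.

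Bcl2l1, which encodes the survival protein Bcl-xL and, by alternative splicing, the death-promoting Bcl-xS, was read by 4 probe sets. Bcl2l1 1420888_at read 436, 387 and 567 in PU.1 ki/ki, against 650, 379 and 364 in wild type. It averaged 463 ± 93.1 on the PU.1 ki/ki arrays and 464 ± 161 on the wild-type arrays (SD, n = 3 each), and the difference was 0.03 ± 0.30 (SE, 95% interval -0.73 to 0.79). Bcl2l1 1420887_a_at read 201, 91 and 100 in PU.1 ki/ki, against 27, 57 and 130 in wild type. Its difference of 1.05 ± 0.66 came with overlapping groups and an adjusted p of 0.693 (limma), and with any 1 array left out it stayed positive, at 0.50 to 1.61. Bcl2l1 1426191_a_at read 250, 217 and 41 in PU.1 ki/ki, against 192, 98 and 52 in wild type. Its difference was 0.39 ± 0.88, with 1 low array in PU.1 ki/ki and a wide spread in wild type. Bcl2l1 1426050_at read 13 to 18 in PU.1 ki/ki, against 18 to 20 in wild type, close to the minimum. The differences of the 4 probe sets thus ran from -0.36 to 1.05, and which of them reads which splice form was not determined here.

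**Figure D2:**
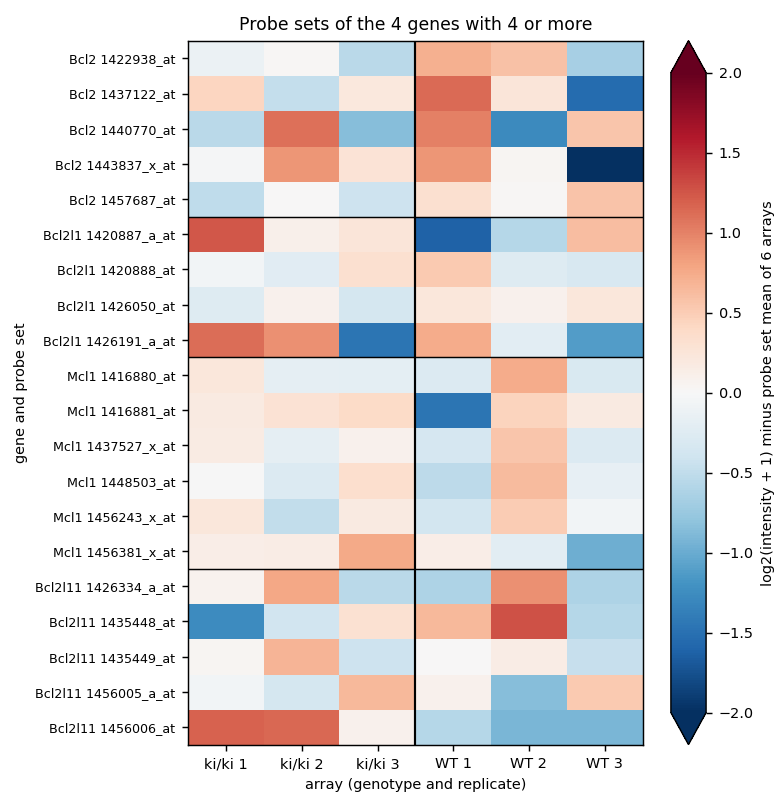
Log2(intensity + 1) of each probe set minus its mean over the 6 arrays, for Bcl2, Bcl2l1, Mcl1 and Bcl2l11, with PU.1 ki/ki arrays left of wild-type arrays. In 5 of 6 Mcl1 probe sets wild-type replicate 2 is the highest array, and probe sets of Bcl2, Bcl2l1 and Bcl2l11 show no shared pattern by genotype. Colours beyond 2 log2 units either way are clipped.

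Of the effectors, Bak1, which forms pores in the outer mitochondrial membrane, was read by 2 probe sets, both slightly higher in PU.1 ki/ki. Bak1 1418991_at read 381, 327 and 1056 in PU.1 ki/ki, against 355, 390 and 403 in wild type. Its difference of 0.41 ± 0.48 (SE, n = 3 each, limma adjusted p = 0.816) came from PU.1 ki/ki replicate 3 and was -0.11 without that array. Bak1 1425716_s_at read 331, 348 and 476 in PU.1 ki/ki, against 254, 404 and 336 in wild type, a difference of 0.22 ± 0.25 (95% interval -0.41 to 0.86, adjusted p = 0.807). The genotypes overlapped in both, and the interval of the second excludes a 2-fold difference either way.

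The 12 probe sets of BH3-only genes gave 5 higher and 6 lower values, and 1, that of Pmaip1, at the minimum. Their median difference was -0.05, over 11 probe sets. Bcl2l11 encodes Bim, a BH3-only protein that binds all survival proteins and limits the lifespan of blood cells, and it was read by 5 probe sets. Bcl2l11 1456006_at read 46, 45 and 21 in PU.1 ki/ki, against 13, 10 and 10 in wild type. The groups did not overlap, and its difference was 1.60 ± 0.35 (SE, n = 3 each). It had an unadjusted p of 0.006 and an adjusted p of 0.463 (limma). The wild-type arrays lay at or near the minimum of 10, 2 of them exactly on it, so the size is uncertain. With a pseudocount of 16 it was 0.95, below the 1.19 of Bid 1417045_at, whereas it was the highest of the members with the pseudocount of 1.

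The other 4 Bcl2l11 probe sets did not share that difference. Bcl2l11 1456005_a_at read 495, 405 and 805 in PU.1 ki/ki, against 549, 284 and 736 in wild type (0.16 ± 0.46, limma adjusted p = 0.938). Bcl2l11 1435448_at read 102, 187 and 301 in PU.1 ki/ki, against 383, 591 and 164 in wild type, a difference of -0.89 ± 0.63 (adjusted p = 0.716) that stayed negative when single arrays were left out, at -1.40 to -0.48. Bcl2l11 1435449_at read 29 to 63 in PU.1 ki/ki, against 28 to 43 in wild type. Bcl2l11 1426334_a_at read 18 to 46 in PU.1 ki/ki, against 17 to 51 in wild type, and each of these differences was 0.21. In 4 of the 5 Bcl2l11 probe sets the genotypes overlapped.

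Bid, which caspase-8 cleaves to link death receptors to mitochondria, had 3 probe sets. Bid 1417045_at read 184, 199 and 165 in PU.1 ki/ki, against 196, 15 and 83 in wild type. The PU.1 ki/ki arrays were close together and the wild-type arrays spread 13.1-fold, and wild-type replicates 2 and 3, the arrays with lost signal, were the low ones. The difference of 1.51 ± 0.95 (SE, limma adjusted p = 0.693) was -0.11 against wild-type replicate 1 alone. Bid 1448560_at read 84, 99 and 88 in PU.1 ki/ki, against 54, 129 and 117 in wild type, with the PU.1 ki/ki arrays inside the wild-type range and a difference of -0.05 ± 0.37. Bid 1447873_x_at read 10 to 27 in PU.1 ki/ki, against 17 to 22 in wild type and was close to the minimum.

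Bad, a BH3-only protein held inactive by survival-factor phosphorylation, had 2 probe sets. Bad 1416582_a_at read 342, 204 and 200 in PU.1 ki/ki, against 363, 217 and 202 in wild type, and its difference was -0.06 ± 0.34 (SE, 95% interval -0.94 to 0.81). The genotypes read nearly the same values, and replicate 1 was the highest array in both. Bad 1416583_at read 716, 368 and 265 in PU.1 ki/ki, against 342, 360 and 1009 in wild type, with 1 high array in each genotype and a difference of -0.28 ± 0.59. Bbc3, encoding the p53-induced BH3-only protein Puma, read 31, 61 and 41 in PU.1 ki/ki, against 61, 61 and 38 in wild type on its only probe set (-0.28 ± 0.33, limma adjusted p = 0.816). Pmaip1, encoding Noxa, which binds Mcl1, read 10 on all 6 arrays, so neither a level nor a fold is given.

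**Figure D3:**
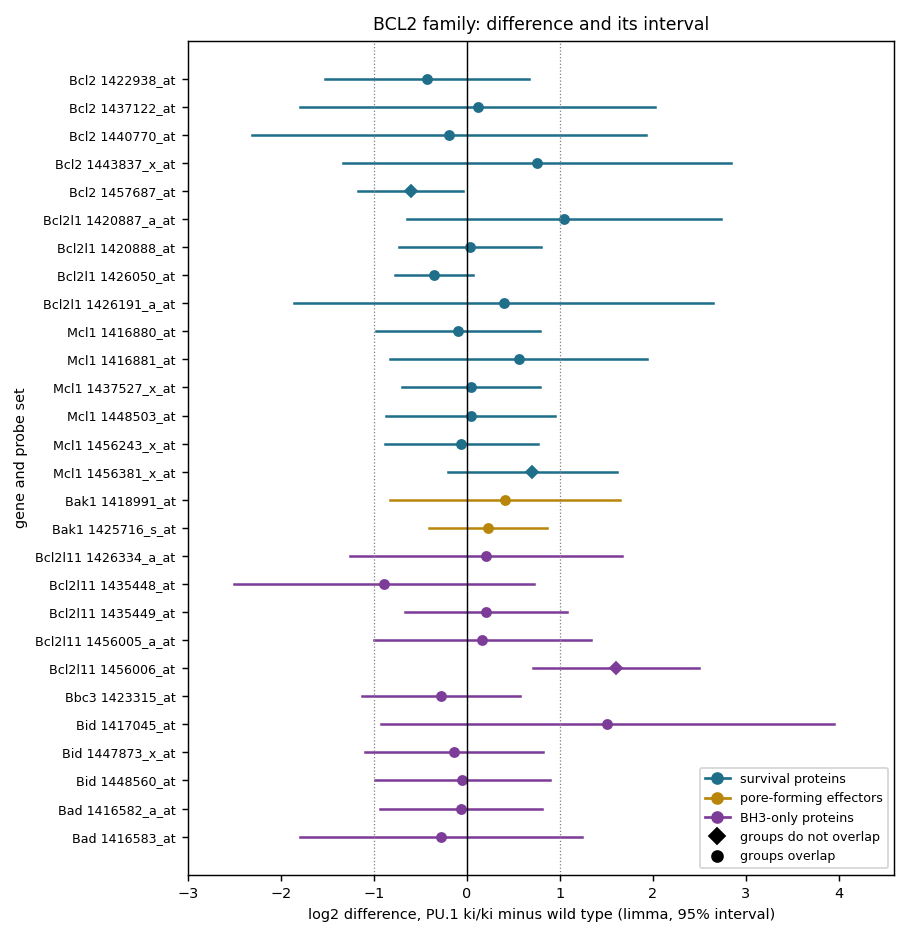
Log2 difference of PU.1 ki/ki minus wild type with limma's 95% interval for the 28 BCL2 family probe sets off the minimum, coloured by role; diamonds mark groups that do not overlap and dotted lines mark 2-fold. The intervals of 9 probe sets lie within 2-fold either way, 6 of them of survival genes. The interval of Bcl2l11 1456006_at (0.71 to 2.50) is the only one wholly above 0, and that of Bcl2 1457687_at (-1.17 to -0.04) the only one wholly below.

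The precision of these comparisons differed by probe set. The 95% interval lay within 2-fold either way in 9 of 28 members (32.1%), against 28.1% of all probe sets tested and 26.2% of those not constant across the arrays. They were 4 probe sets of Mcl1, 2 of Bcl2l1 and 1 each of Bak1, Bid and Bad. For the other 19 a 2-fold difference in at least 1 direction lies within the interval. For each probe set, the range within a genotype was set against the fitted fold. In 26 of 28 members the highest array of at least 1 genotype exceeded its lowest by more than the fitted fold between genotypes. This was not counted over all probe sets, so it is not read as a trait of the family. The median ratio of highest to lowest array within a genotype was 1.79 for PU.1 ki/ki arrays and 2.19 for wild-type arrays. Over all probe sets that were not constant it was 1.55 for PU.1 ki/ki arrays and 2.20 for wild-type arrays.

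The genes around the family were described by 4 lists, each with 1 probe set per gene, and 0 genes of any list passed over all probe sets (limma). The shares of all probe sets set beside the lists were not restricted to 1 probe set per gene. They also include dim probe sets and those constant across the arrays, whereas the lists take the brightest probe set of each gene. A list share above that of all probe sets is therefore not read as a trait of the list. Of 11 measured further BCL2 family genes, 6 were higher and 5 lower (median 0.03), 1 higher and 1 lower without overlap (18.2%, against 12.1% of all probe sets). Bnip3, a mitochondrial BH3-domain protein induced by hypoxia, read 537, 280 and 489 in PU.1 ki/ki, against 253, 72 and 55 in wild type. The groups did not overlap, with a difference of 2.05 ± 0.66 (SE, adjusted p = 0.554), and it was 0.73 against wild-type replicate 1 alone. Bok, a BAX-like effector, read 72, 93 and 80 in PU.1 ki/ki, against 104, 121 and 116 in wild type (-0.48 ± 0.15, adjusted p = 0.551), also without overlap. Bcl2l12 differed by 0.76 and Bcl2l13 by -0.86, both with overlap, and the 1 other probe set of each had the opposite sign.

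Of 13 measured genes of the apoptosome, the caspases and mitochondrial release, 6 were higher and 7 lower (median -0.09), with 1 higher and 3 lower without overlap (30.8%, against 12.1% of all probe sets). Casp2, a caspase activated by genotoxic stress, read 485, 328 and 355 in PU.1 ki/ki, against 579, 651 and 745 in wild type (-0.77 ± 0.21 SE, limma adjusted p = 0.508). Vdac1, a channel of the outer mitochondrial membrane, read 12054, 11589 and 11103 in PU.1 ki/ki, against 15472, 15613 and 15646 in wild type (-0.43 ± 0.11, adjusted p = 0.508). The genotypes were apart in both, and against wild-type replicate 1 alone the differences were -0.59 for Casp2 and -0.42 for Vdac1. Vdac1 had 4 other probe sets, 2 of which had the opposite sign. Vdac3 read 2000, 2385 and 2087 in PU.1 ki/ki, against 1891, 1705 and 1033 in wild type (0.53), without overlap. Aifm1, a mitochondrial flavoprotein, differed by 1.17 with overlap and by -0.40 against wild-type replicate 1 alone.

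Of 10 measured caspase inhibitors and death receptor genes, 7 were higher and 3 lower (median 0.41), with 2 higher and 0 lower without overlap (20.0%, against 12.1% of all probe sets). Birc3, the inhibitor of apoptosis cIAP2, read 249, 198 and 353 in PU.1 ki/ki, against 148, 96 and 137 in wild type (1.05 ± 0.29 SE, limma adjusted p = 0.512), and 0.80 against wild-type replicate 1 alone. Tnfrsf10b, a TRAIL receptor, read 87, 84 and 97 in PU.1 ki/ki, against 64, 38 and 61 in wild type (0.74 ± 0.24, adjusted p = 0.555). In both the lowest PU.1 ki/ki array stood above the highest wild-type array. Fadd, the adaptor of death receptors, read 612, 613 and 348 in PU.1 ki/ki, against 2827, 460 and 1650 in wild type, a difference of -1.34 ± 0.74 with overlap. It was -0.78 without wild-type replicate 1, -2.09 without wild-type replicate 2 and -2.48 against wild-type replicate 1 alone. Cflar, an inhibitor of caspase-8, differed by -0.16, and 1 of its 4 other probe sets had the opposite sign.

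Of 13 measured regulators of BCL2 family genes and proteins, 6 were higher and 7 lower (median -0.11), with 2 higher and 1 lower without overlap (23.1%, against 12.1% of all probe sets). Mapk8, the stress kinase JNK1, read 136, 183 and 149 in PU.1 ki/ki, against 77, 21 and 16 in wild type. Its difference of 2.34 ± 0.62 (SE, limma adjusted p = 0.508) was 1.00 against wild-type replicate 1 alone, and 2 of its 4 other probe sets had the opposite sign. Myb, a transcription factor that activates Bcl2 in the mouse, read 3123, 2265 and 3128 in PU.1 ki/ki, against 5035, 4655 and 3161 in wild type (-0.58 ± 0.25, adjusted p = 0.621), without overlap by a margin of 3128 to 3161, and 1 of its 2 other probe sets had the opposite sign. Foxo3, a transcriptional activator of Bcl2l11, read 1547, 1416 and 1216 in PU.1 ki/ki, against 2138, 2280 and 1526 in wild type (-0.49 ± 0.21, adjusted p = 0.616), with overlap, and its 2 other probe sets had the opposite sign. Usp9x, a deubiquitinase that stabilises Mcl1 protein, differed by 0.42 with overlap.

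**Figure D4:**
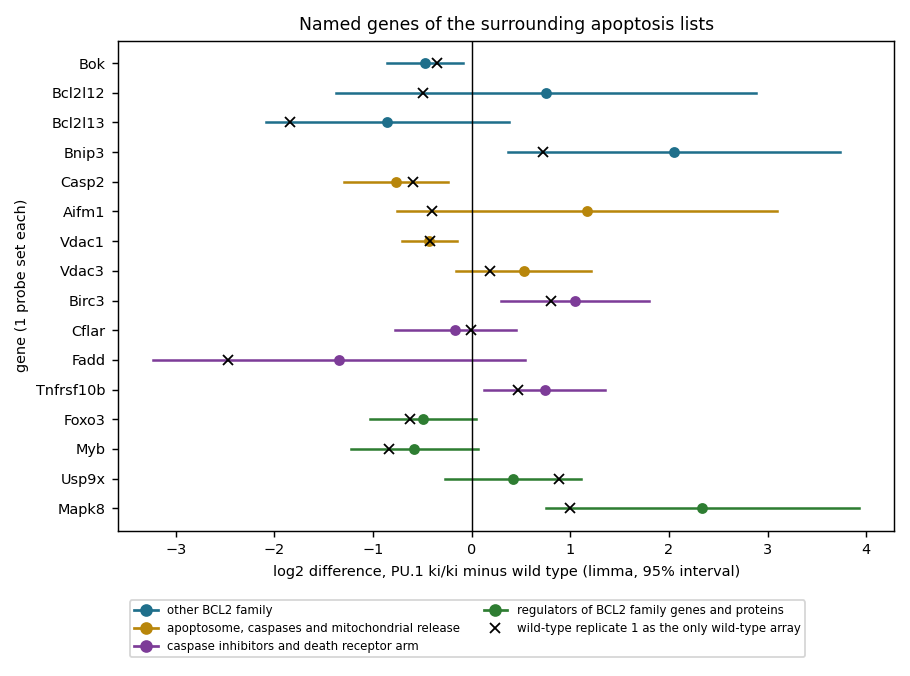
Log2 difference of PU.1 ki/ki minus wild type with limma's 95% interval for the 16 named genes of the 4 surrounding lists; crosses show the difference against wild-type replicate 1 alone. Vdac1 keeps a similar value at the cross (-0.43 and -0.42). Bok (-0.48 and -0.35), Casp2 (-0.77 and -0.59), Birc3 (1.05 and 0.80) and Tnfrsf10b (0.74 and 0.47) keep their sign and are smaller in size there. So are Vdac3 (0.53 and 0.19), Bnip3 (2.05 and 0.73), Mapk8 (2.34 and 1.00) and Cflar (-0.16 and -0.003), and Aifm1 and Bcl2l12 change sign. Larger in size there are Bcl2l13 (-0.86 and -1.84), Fadd (-1.34 and -2.48), Myb (-0.58 and -0.84), Usp9x (0.42 and 0.89) and Foxo3 (-0.49 and -0.62).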

How the data were processed

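RNA of sorted adult HSCs was biotin-labelled and hybridised to 6 single-colour arrays, per the labels' protocols. The deposited series table holds intensities on a linear scale, 1 per probe set and array, which the submitters' processing notes credit to RMA. The sources used here describe neither the step to a linear scale nor the minimum of 10. Groups and replicate numbers come from sample titles, and the free-text sample descriptions, which name embryos, were set aside. Nothing says that replicates are separate animals, so p-values cover the spread among these samples alone, and it may be technical.

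No further normalization was applied. After 64 control probe sets were left out, log2(intensity + 1) of 45037 probe sets was fitted with limma 3.58.1 (lmFit, eBayes, R 4.3.3) with genotype as the only term. P-values were adjusted by Benjamini-Hochberg, with a threshold of 0.05. Symbols came from the platform annotation (34945 probe sets with 1 symbol, 932 with several, 9160 with none). All 29 members matched a RefSeq gene number. Lists used the probe set with the highest mean per gene. Of 55 list genes, 47 were measured. Named genes are all members and, per list, the 2 higher and 2 lower with the lowest p. Members and lists were chosen with earlier results of these data known. Precision is limited by the number of arrays. Figures used matplotlib 3.10.9.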

Additional observations from a re-analysis of the deposited data

How the results depend on the processing

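The count of members and of all probe sets at an adjusted p under 0.05 was 0 under every alternative run: a further quantile normalization, centring on array medians (after which the median over all probe sets was -0.11), a pseudocount of 16, leaving out dim probe sets (median 0.16), a trended and robust prior, array weights, the replicate block, wild-type replicate 1 as the only wild-type array, and each array left out. At an unadjusted p under 0.05 the members numbered 0 without dim probe sets, where Bcl2l11 1456006_at is not fitted, and 1 with the trended and robust prior, 1 with array weights, 1 with the replicate block, and 1 to 3 with single arrays left out. All probe sets at that limit numbered 1701 without dim probe sets and 2535 to 7183 with single arrays left out. The replicate numbers pair nothing that the labels name: deviations of same-numbered arrays correlated at -0.016, 0.021 and -0.017, and the block changed no adjusted call. The median difference of the survival genes was -0.40 against wild-type replicate 1 alone and -0.085 to 0.27 with single arrays left out.

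Of 28 members, 19 changed sign under at least 1 alternative, in 57 of 386 values. The cause was not tested. After quantile normalization these were Bcl2 1437122_at (-0.039), Bcl2l1 1420888_at (-0.12), Mcl1 1437527_x_at (-0.023) and Mcl1 1448503_at (-0.090). After centring they were Bcl2l1 1420888_at (-0.076), Mcl1 1437527_x_at (-0.060) and Mcl1 1448503_at (-0.067). With array weights they were Bcl2 1437122_at (-0.10), Bcl2l1 1420888_at (-0.031), Bid 1448560_at (0.040) and, outside the family, Spi1 (0.0088). Against wild-type replicate 1 alone they were Bcl2 1437122_at (-1.07) and 1443837_x_at (-0.50), Bcl2l1 1420888_at (-0.51) and 1426191_a_at (-0.55), Mcl1 1416880_at (0.23) and 1456243_x_at (0.34), Bcl2l11 1456005_a_at (-0.012), Bid 1417045_at (-0.11) and 1448560_at (0.73), Bad 1416583_at (0.27), Bcl2l12 (-0.49), Aifm1 (-0.40) and Spi1 (0.18).

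Ranges that crossed 0 with single arrays left out were, for Bcl2, -0.63 to 0.71 (1437122_at), -0.88 to 0.26 (1440770_at) and -0.085 to 1.38 (1443837_x_at), and for Bcl2l1 -0.12 to 0.30 (1420888_at) and -0.070 to 1.22 (1426191_a_at). For Mcl1 they were -0.28 to 0.24 (1416880_at), -0.034 to 0.92 (1416881_at), -0.11 to 0.33 (1437527_x_at), -0.21 to 0.36 (1448503_at) and -0.26 to 0.18 (1456243_x_at), and for Bak1 1418991_at -0.11 to 0.73. For Bcl2l11 they were -0.13 to 0.72 (1426334_a_at), -0.081 to 0.47 (1435449_at) and -0.22 to 0.46 (1456005_a_at). For Bid they were -0.47 to 0.20 (1447873_x_at) and -0.44 to 0.18 (1448560_at), and for Bad -0.32 to 0.20 (1416582_a_at) and -0.67 to 0.23 (1416583_at). Outside the family they were -0.046 to 1.38 for Bcl2l12, -0.32 to 0.052 for Cflar and -0.14 to 0.052 for Spi1. Signals near the minimum of 10 limit what can be said of Pmaip1, Bcl2l1 1426050_at, Bid 1447873_x_at and Bcl2l11 1456006_at.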
